A study of Mus musculus with 16 samples.

Results

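The apelin, adrenomedullin and endothelin peptide systems of bone endothelial cells were followed through 9 genes, whose rows were taken by symbol or Ensembl identifier. No cut-off on a measured value chose them, but earlier results of these data were known. These were the ligand genes Apln, Adm and Edn1, the receptor genes Aplnr, Calcrl and Ednrb, the receptor-modifying genes Ramp2 and Ramp3, and Ece1, which encodes the endothelin-converting enzyme. All 9 were found in each of the 3 sets of values, which held 38926 (mpEC and bmEC), 21603 (Yap1/Taz) and 38926 (Lats2) gene rows.

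Apelin is a secreted peptide that acts on Aplnr, a G protein-coupled receptor of growing and venous endothelium. Adrenomedullin acts on Calcrl, a receptor that reaches the cell surface only with a partner from the RAMP family. Ramp2 or Ramp3 turns Calcrl into an adrenomedullin receptor and Ramp1 turns it into a receptor for calcitonin gene-related peptide. Endothelin-1 is cut from an inactive precursor by Ece1. The endothelial receptor Ednrb takes endothelin-1 out of the circulation and triggers nitric oxide release, whereas Ednra is the contractile receptor of smooth muscle. Genes of the apelin and adrenomedullin systems are known to respond to low oxygen, and the study asked how Hippo signalling and hypoxia interact in bone vessels.

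Bulk RNA-seq of sorted endothelial cells from the long bones of C57BL/6 mice gave 16 libraries. In wildtype mice carrying the Cdh5-mTnG reporter, which marks endothelial cells through the Cdh5 promoter, cells of the metaphysis (mpEC, 3 libraries) were set beside cells of the diaphysis and marrow (bmEC, 3 libraries), both from 3-week-old animals. The Yap1/Taz arm held 3 control libraries (Yap1flx/flx; Wwtr1flx/flx, Cdh5CreERT2 negative) and 3 libraries whose label is Cdh5CreERT2 positive on the same floxed background, all at postnatal day 21. The Lats2 arm held 2 control libraries (Lats2flx/flx, Cdh5CreERT2 negative) and 2 mutant libraries (Lats2flx/flx, Cdh5CreERT2 positive). For this arm too the methods describe 3-week-old animals. Cdh5CreERT2 is an endothelial Cre that tamoxifen activates, and the floxed alleles were present in controls and mutants alike. The methods describe tamoxifen injections of pups. For the knockout arms the methods describe a sort on CD31 and Emcn, and littermates as controls. The methods state biological triplicates, but the labels do not tie a library to an animal, so the p-values measure only the spread between these libraries.

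The values are FPKM, fragments scaled to gene length and to library size. Reads recovered from their step size came to between 11122417 and 14756144 per library for mpEC and bmEC, 4889945 to 7162965 for the Yap1/Taz arm and 4732694 to 7074017 for the Lats2 arm. The fits used log2(FPKM + 1), so a fold change of a low gene is understated on that scale. Only genes that averaged 1 FPKM or more over the libraries compared were tested. A gene was called at an adjusted p under 0.05 (limma, Benjamini-Hochberg over all genes tested). The 3 sets were scaled separately by the authors, so levels are set side by side across them as description only. In bulk samples fewer cells of a type and less RNA per cell cannot be told apart. The 10 endothelial markers were present in every set, with a summed level of 1629 to 2145 FPKM in mpEC and bmEC, 613 to 918 in the Yap1/Taz arm and 2423 to 2918 in the Lats2 arm. Blood cell transcripts were abundant as well, with erythroid markers summing to 28251 to 60395 FPKM in mpEC and bmEC.

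The knockout labels were checked first. Yap1 was at 1.07, 1.62 and 0.995 FPKM in the Yap1/Taz controls and at 1.43, 1.03 and 0.989 FPKM in the libraries labelled as mutant, a log2 difference of −0.04 ± 0.18 (SE; limma adjusted p = 0.934). Wwtr1, which encodes Taz, was at 10.0, 9.88 and 10.3 FPKM in controls and higher in the libraries labelled as mutant, at 15.3, 19.6 and 19.5 FPKM (log2 difference 0.78 ± 0.12, limma adjusted p = 0.0272). Wwtr1 therefore went against the label, whereas Yap1 overlapped between the groups and was not called. These are called the libraries labelled Yap1/Taz mutant throughout, with every direction given by label only. Lats2 was at 23.4 and 24.0 FPKM in controls and 19.2 and 19.2 FPKM in mutants (log2 difference −0.29 ± 0.11, limma adjusted p = 0.125). Of the Lats2 exon sequence, 42.4% is shared on the same strand with the gene model Gm49361. A gene total also takes in exons outside a deleted part, so a total that stays up does not check a label. By quantitative PCR, the study reported less Yap1 and Wwtr1 transcript in Yap1/Taz mutant bone endothelial cells, and it reported weaker Yap1 staining of their vessels. It also reported less Lats2 transcript in cells of Lats2 mutants.

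In the GRCm38 annotation the ligand genes lie at X:48025146-48034853 (Apln, minus strand), 7:110627661-110629820 (Adm, plus strand) and 13:42301476-42307990 (Edn1, plus strand). The receptor genes lie at 2:85136225-85139923 (Aplnr, plus), 2:84330626-84425411 (Calcrl, minus) and 14:103814625-103844402 (Ednrb, minus), the RAMP genes at 11:101246028-101259546 (Ramp2, plus) and 11:6658521-6677475 (Ramp3, plus), and Ece1 at 4:137862237-137965229 (plus).

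The sequences before the start sites of the 3 ligand genes are shown because these genes moved most in the Lats2 arm. They are the 250 bases upstream of the RefSeq start in the GRCm38.p6 build, each 5′ to 3′ on the gene's own strand. Capitals mark the hypoxia response element cores ACGTG and GCGTG and the TEAD motif core GGAATG, read on either strand. TEAD factors are the DNA-binding partners of Yap1 and Taz. The windows are chrX:48034854-48035103 (minus strand) for Apln, chr7:110627407-110627656 (plus strand) for Adm and chr13:42301226-42301475 (plus strand) for Edn1.
Apln: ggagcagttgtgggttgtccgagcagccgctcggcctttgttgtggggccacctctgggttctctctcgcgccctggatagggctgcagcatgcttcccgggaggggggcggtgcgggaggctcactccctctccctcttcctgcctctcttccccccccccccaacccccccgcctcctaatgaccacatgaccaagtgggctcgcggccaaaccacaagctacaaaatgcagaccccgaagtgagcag
Adm: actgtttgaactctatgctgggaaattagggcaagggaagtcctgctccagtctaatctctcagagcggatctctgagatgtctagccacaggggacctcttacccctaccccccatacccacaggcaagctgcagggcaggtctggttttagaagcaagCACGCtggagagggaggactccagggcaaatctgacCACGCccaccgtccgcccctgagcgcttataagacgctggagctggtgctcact
Edn1: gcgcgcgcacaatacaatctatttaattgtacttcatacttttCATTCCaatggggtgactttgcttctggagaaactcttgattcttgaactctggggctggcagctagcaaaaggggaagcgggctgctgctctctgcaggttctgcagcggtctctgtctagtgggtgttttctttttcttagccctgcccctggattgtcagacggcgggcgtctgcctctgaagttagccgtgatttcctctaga

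In these 250 bases Apln held none of the 3 cores. Adm held GCGTG on the reverse strand (CACGC) at positions −90 and −54 from the start. Edn1 held GGAATG on the reverse strand (CATTCC) at −207. Edn1 also held ACGTG on the reverse strand (CACGT) at +22, after the RefSeq start, within the following 30 bases at chr13:42301485-42301514.
Edn1 after the start: tatctctggctgCACGTtgcctgtgggtga
Over windows of 300 bases, which add 50 bases after the start, ACGTG was found in 19.6% of the 32851 RefSeq promoter windows, GCGTG in 32.4% and GGAATG in 14.7%. The AP-1 motif TGANTCA was found in 7.81% of them and in no window of a member. Among the other members with a window, Ramp3 held GCGTG at 2 positions and GGAATG at 1, Calcrl held GCGTG at 1, Ednrb held it at 2, and Ece1, which has 4 windows, held GCGTG in 3 of them and ACGTG in 1. Matches of 5 or 6 letters are common in promoters, and a match describes the letters only.

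**Figure D1:**
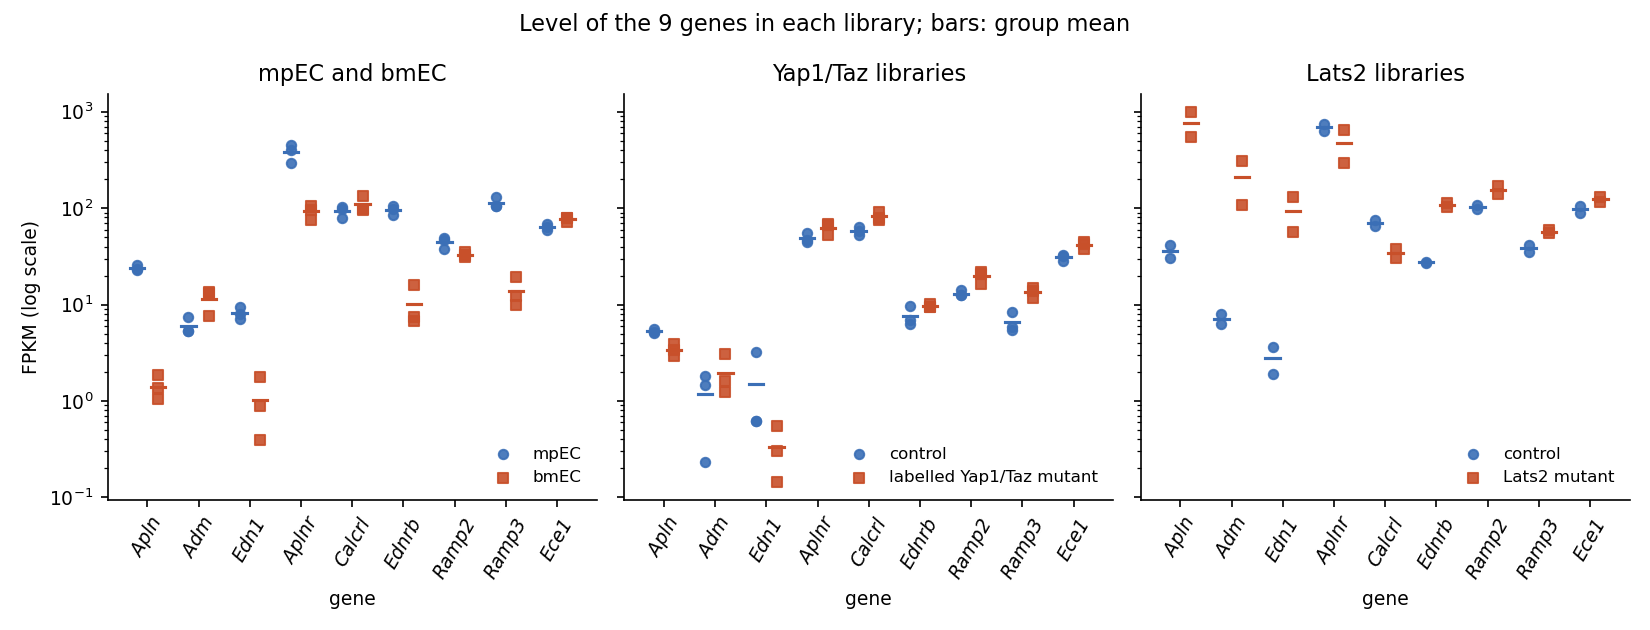
FPKM of the 9 genes in each of the 16 libraries on a log axis, with circles for mpEC or control libraries, squares for bmEC or mutant-labelled libraries and a bar at each group mean. Apln, Edn1, Ednrb and Ramp3 sit lower in all 3 bmEC libraries than in any mpEC library, and Apln, Adm and Edn1 sit higher in both Lats2 mutant libraries than in both controls.

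The first comparison set bmEC against mpEC, the question being how the endothelium of these territories differs. Most of the 9 genes were lower in bmEC. Apln, Aplnr, Edn1, Ednrb, Ramp3 and Ramp2 were called lower and Adm was called higher, which is 7 of 9 members (limma, adjusted p under 0.05). Over all 11422 genes tested 23.5% were called, 13.0% higher and 10.5% lower. The 3 libraries of each group did not overlap for 8 of the 9 members, against 41.3% of all genes tested. The median log2 difference (bmEC minus mpEC) was −2.03 over the members and 0.00 over all genes.

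Among the ligands, Apln differed most between the territories. It was at 23.4, 22.9 and 25.9 FPKM in mpEC and at 1.04, 1.85 and 1.35 FPKM in bmEC. Every bmEC library was far below every mpEC library, on 27 to 55 recovered reads in bmEC and 719 to 912 in mpEC. The mean of 24.1 ± 1.60 FPKM (SD, n = 3) in mpEC was 17.0-fold that of 1.41 ± 0.406 FPKM (SD, n = 3) in bmEC (log2 difference −3.39 ± 0.14 SE, n = 3 and 3, limma adjusted p = 1.22e-05), and 14th from the lowest among 11422 genes. With a pseudocount of 0.1 in place of 1 the difference was −4.03.

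Edn1, the endothelin-1 gene, was at 8.01, 7.06 and 9.40 FPKM in mpEC and 0.881, 1.76 and 0.399 FPKM in bmEC. The groups did not overlap, and bmEC values rested on 17, 39 and 11 reads. The mean was 8.05-fold lower in bmEC (log2 difference −2.23 ± 0.24, limma adjusted p = 0.000502), and −3.08 with a pseudocount of 0.1. Adm went the other way. It was at 5.27, 5.30 and 7.46 FPKM in mpEC and 13.2, 13.6 and 7.69 FPKM in bmEC, so the lowest bmEC library lay just above the highest mpEC library. The log2 difference was 0.81 ± 0.22 (limma adjusted p = 0.0310). The call for Adm was lost when 1 library was left out, whether mpEC replicate 1 or 2 or bmEC replicate 1 or 2, with the adjusted p reaching 0.0993, and with no filter on low values, at 0.0817.

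Among the receptors, Aplnr and Ednrb were lower in bmEC and Calcrl was not called. Aplnr, the most abundant member in mpEC, was at 291, 452 and 402 FPKM there and at 75.4, 106 and 95.4 FPKM in bmEC. The lowest mpEC library held more than the highest bmEC library, and the mean was 4.13-fold lower in bmEC (log2 difference −2.03 ± 0.18, limma adjusted p = 0.000225). Ednrb was at 97.0, 85.0 and 104 FPKM in mpEC and at 7.34, 15.9 and 6.76 FPKM in bmEC. Its mean was 9.52-fold lower in bmEC (log2 difference −3.22 ± 0.27, limma adjusted p = 0.000163). Calcrl, the shared receptor of the calcitonin family peptides, was at 79.4, 98.6 and 104 FPKM in mpEC and 97.4, 135 and 95.9 FPKM in bmEC. These groups overlapped, and the log2 difference of 0.21 ± 0.16 was not called (limma adjusted p = 0.375).

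The RAMP partners of Calcrl differed strongly between the territories. Ramp3 was at 105, 104 and 130 FPKM in mpEC and 9.95, 19.2 and 12.4 FPKM in bmEC. Its mean was 8.16-fold lower in bmEC (log2 difference −2.98 ± 0.21, limma adjusted p = 7.88e-05). Ramp2 was at 37.4, 48.8 and 46.5 FPKM in mpEC and 32.4, 31.4 and 34.7 FPKM in bmEC. The Ramp2 groups did not overlap, but the log2 difference of −0.41 ± 0.11 (limma adjusted p = 0.0313) was small. The call for Ramp2 was lost when mpEC replicate 2 or 3 or bmEC replicate 1 or 2 was left out, with the adjusted p reaching 0.108, and with no filter or no variance trend, at up to 0.0628. Of the Ramp2 exon sequence, 33.4% is shared on the same strand with Vps25, so reads there may not separate the 2 genes.

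Ramp3 made up 65.6% to 71.4% of the summed Ramp1, Ramp2 and Ramp3 FPKM in the mpEC libraries and 20.5% to 35.4% in the bmEC libraries. Ramp2 made up 24.3% to 30.8% in mpEC and 57.7% to 68.3% in bmEC. The main RAMP transcript per unit length was thus Ramp3 in all 3 mpEC libraries and Ramp2 in all 3 bmEC libraries. This order rests on the gene lengths used, 3301 exon bases for Ramp2, shared in part with Vps25, and 1380 for Ramp3. By recovered reads, mpEC replicate 2 held more Ramp2 than Ramp3 (1608 and 1433). In mpEC replicates 1 and 3 Ramp3 stayed ahead (1788 against 1527 and 1747 against 1489). Because Calcrl hardly differed, the RAMP sum per Calcrl FPKM was 1.61 to 1.94 in mpEC and 0.403 to 0.530 in bmEC. These shares and ratios were not tested.

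Ece1, the endothelin-converting enzyme, was at 59.5, 68.7 and 64.1 FPKM in mpEC and at 79.9, 79.7 and 71.5 FPKM in bmEC. The groups did not overlap, yet the log2 difference of 0.26 ± 0.09 was not called (limma adjusted p = 0.0668). Across the endothelin system, the ligand and Ednrb were therefore lower in bmEC by 8.05-fold and 9.52-fold and the converting enzyme was not, and the ratio of Edn1 to Ednrb FPKM overlapped between mpEC (0.0826 to 0.0902) and bmEC (0.0590 to 0.120).

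Apart from Adm and Ramp2, the calls in bmEC against mpEC held in every alternative fit that tested the gene, 15 fits for Apln, Aplnr, Ramp3 and Ednrb and 14 for Edn1. Markers of other cells moved with the territory, and of the 10 endothelial markers 4 were called higher and 3 lower in bmEC. Of the osteoblast markers, 4 of 6 tested were called lower in bmEC, with a summed level of 139 to 737 FPKM in mpEC and 42.9 to 55.2 FPKM in bmEC. Both tested chondrocyte markers (2 of 2) were called lower, from 12.8 to 16.4 FPKM in sum to 0.0116 to 0.121 FPKM. Of the pericyte and smooth muscle markers Abcc9 and Kcnj8 were called higher (2 of 4 tested), with sums of 183 to 269 and 620 to 633 FPKM, while Cspg4, Des, Myh11 and Pdgfrb had means under 1 FPKM. Of the marrow stromal markers Lepr and Adipoq were called higher and Kitl lower (3 of 4 tested, sums of 58.9 to 77.1 and 50.2 to 83.9 FPKM). Among blood cell markers, Lyz2 of the macrophage list (1 of 5 tested) and Ebf1 of the B cell list (1 of 6) were called lower, with list sums of 1083 to 1973 and 711 to 1001 FPKM and of 137 to 265 and 118 to 151 FPKM. No erythroid, neutrophil or megakaryocyte marker was called. None of the markers was at 0 in all libraries, and the part of these cells in the member differences was not tested.

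Other genes of the pathways were given by list. Of the other ligands and receptors, 3 of 11 passed the filter. Gpr182, a receptor of sinusoidal endothelium, was at 93.3, 136 and 116 FPKM in mpEC and 274, 285 and 323 FPKM in bmEC (log2 difference 1.36 ± 0.14, limma adjusted p = 0.000432). Ackr3, a scavenging receptor that binds adrenomedullin as well as chemokines, was lower in bmEC (log2 difference −1.20 ± 0.21, limma adjusted p = 0.00503). Ramp1 was at 12.0, 5.74 and 5.86 FPKM in mpEC and 6.19, 3.74 and 3.74 FPKM in bmEC, and was not called (limma adjusted p = 0.146). Ednra was between 0.133 and 0.414 FPKM in all 6 libraries, and Adm2, Calcr, Edn2 and Edn3 were listed at 0.

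Among peptide-processing genes 1 of 8 tested was higher (Pcsk6) and 2 were lower. The lower ones were Prcp, a carboxypeptidase that trims apelin and angiotensin (log2 difference −1.34 ± 0.08, limma adjusted p = 3.27e-05), and Pcsk5, a proprotein convertase (−1.27 ± 0.12, limma adjusted p = 0.000300). Of 16 coupling and desensitization genes, Gna11 and Gna12 were higher and Gnai2 and Rgs2 were lower, with Rgs2, which damps Gq signals, at a log2 difference of −1.09 ± 0.18 (limma adjusted p = 0.00348). Npr2 and F2r were higher among 3 other vasoactive receptors tested. The hypoxia list had 6 of 12 tested genes higher (Bhlhe40, Bnip3, Egln1, Ndrg1, Pdk1 and Slc2a1) and P4ha2 lower, with Pdk1 at 1.39 ± 0.10, Bnip3 at 0.96 ± 0.12 and Slc2a1 at 0.72 ± 0.14 on the log2 scale. The YAP/TAZ target list had 2 of 12 higher (Axl at 2.06 ± 0.16, and Crim1) and 2 lower (Thbs1 at −1.43 ± 0.35 and Nt5e at −1.13 ± 0.17).

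**Figure D2:**
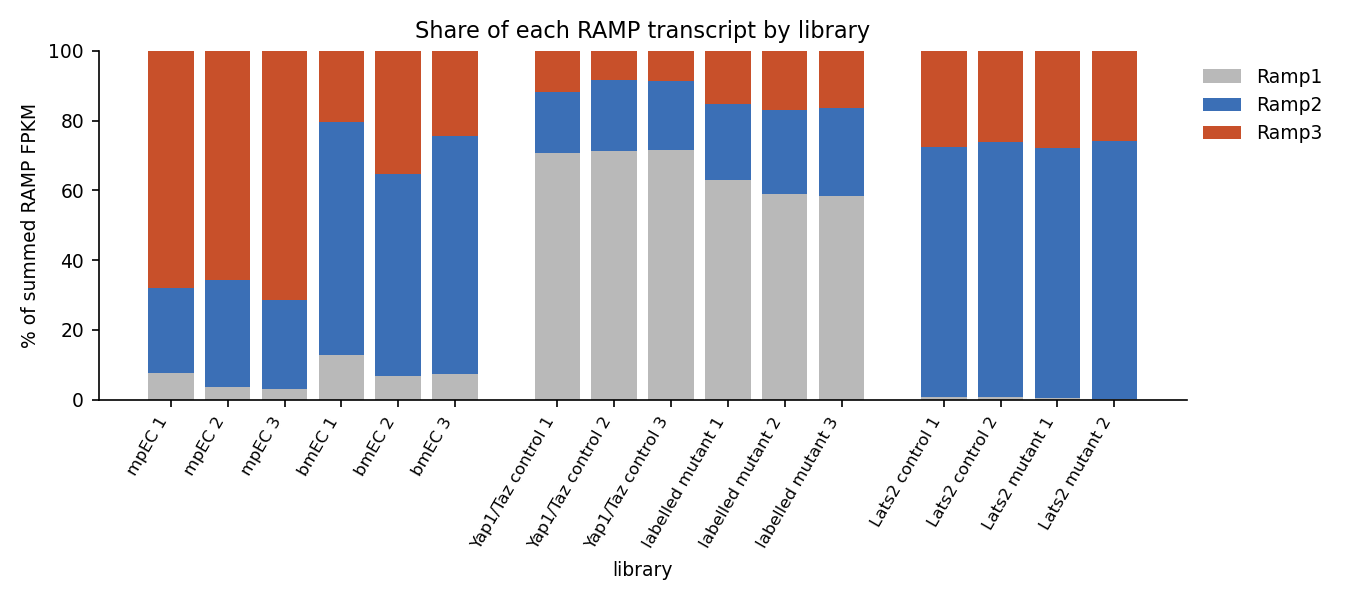
Share of Ramp1, Ramp2 and Ramp3 in the summed RAMP FPKM of each library, stacked to 100%. Ramp3 is the largest share in the 3 mpEC libraries (65.6% to 71.4%), Ramp2 in the bmEC and Lats2 libraries, and Ramp1 in all 6 libraries of the Yap1/Taz arm (58.3% to 71.6%).

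The second comparison set the libraries labelled Yap1/Taz mutant against their controls, with Wwtr1 called higher and Yap1 not called, as given above. Differences were small. Of the 9 genes 8 passed the filter, and Ramp3 alone was called (1 of 8, higher). Over all 11320 genes tested 1.31% were called, 0.883% higher and 0.424% lower. The groups did not overlap for 5 of the 8 members tested, against 23.6% of all genes tested.

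Apln was at 5.08, 5.58 and 5.18 FPKM in controls and 2.92, 3.91 and 3.41 FPKM in the libraries labelled mutant. The groups did not overlap, but the log2 difference of −0.51 ± 0.13 was not called (limma adjusted p = 0.0785). Adm was at 1.83, 1.47 and 0.234 FPKM in controls and 1.24, 1.61 and 3.06 FPKM in the labelled libraries. These values rest on 12, 14 and 2 reads in controls and 8, 13 and 24 in the labelled libraries. The groups overlapped (log2 difference 0.49 ± 0.32, limma adjusted p = 0.467). Edn1 fell under the filter, at 3.24, 0.620 and 0.620 FPKM in controls and 0.548, 0.146 and 0.3004 FPKM in the labelled libraries. Only control replicate 1, with 36 reads, stood clearly apart, and the other 5 libraries held 2 to 10 reads.

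The receptors were measured well above that floor. Aplnr was at 46.8, 55.1 and 44.6 FPKM in controls and 52.7, 67.7 and 66.6 FPKM in the labelled libraries, which overlapped (log2 difference 0.34 ± 0.13, limma adjusted p = 0.191). Calcrl was at 64.3, 52.5 and 57.8 FPKM in controls and 76.1, 91.8 and 79.2 FPKM in the labelled libraries. Its log2 difference of 0.49 ± 0.11 missed the threshold (limma adjusted p = 0.0654), although no control library reached the lowest labelled library. Ednrb was at 9.65, 6.91 and 6.36 FPKM and at 10.2, 9.53 and 9.42 FPKM (log2 difference 0.33 ± 0.14, limma adjusted p = 0.272).

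Ramp3 was at 8.40, 5.89 and 5.50 FPKM in controls and 11.6, 15.0 and 13.8 FPKM in the labelled libraries, with 47 to 121 reads per library. All 3 labelled libraries were above all 3 controls, and the log2 difference was 0.94 ± 0.16 (limma adjusted p = 0.0347). Its call was lost without control replicate 2, control replicate 3, labelled replicate 2 or labelled replicate 3, with the adjusted p reaching 0.184. It was also lost with no filter, with no variance trend and with the replicate number as a block, at up to 0.0926. Ramp2 was at 12.4, 14.1 and 12.4 FPKM in controls and 16.4, 21.0 and 21.5 FPKM in the labelled libraries (log2 difference 0.55 ± 0.12, limma adjusted p = 0.0642). Ece1 was at 28.6, 32.6 and 32.1 FPKM and at 44.6, 38.0 and 42.2 FPKM (log2 difference 0.41 ± 0.10, limma adjusted p = 0.0781).

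The sum of the endothelial markers was higher by label as well. The 10 endothelial markers had a median log2 difference of 0.36, with sums of 613 to 640 FPKM in controls and 791 to 918 FPKM in the labelled libraries, and 1 of 10 was called higher (Cldn5). Of 6 osteoblast markers tested 3 were called lower, with sums of 37.9 to 52.2 and 10.7 to 24.5 FPKM. Of 5 megakaryocyte markers Ppbp was called higher (sums of 147 to 166 and 161 to 184 FPKM), and no marker of the other lists was called. Scaling each library to 6 pan-endothelial genes moved the median of all genes to −0.40 and turned the direction of Aplnr (−0.10), Ednrb (−0.07) and Ece1 (−0.03). Under that scaling Ramp3 remained called higher and Apln was called lower (log2 difference −0.88, limma adjusted p = 0.00303, the lowest of its 14 alternative fits, which reached 0.241). The calls over all genes became 75 higher and 5692 lower, in place of 100 and 48. The adjusted p without the labelled replicate 1 was 0.0496 for Calcrl and 0.0203 for Ramp2, and both then passed the threshold. The part of these cells in the member differences was not tested.

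In the Yap1/Taz arm the RAMP transcripts had another make-up. Ramp1 was at 45.2 to 51.9 FPKM in the 6 libraries, above Ramp2 and Ramp3 in each, and was not called (log2 difference 0.04 ± 0.09, limma adjusted p = 0.859). Ramp1 made up 70.6% to 71.6% of the RAMP sum in controls and 58.3% to 63.1% in the labelled libraries. In mpEC and bmEC it made up 3.21% to 12.8%, and in the Lats2 arm 0.176% to 0.922%. The 3 sets were also scaled separately, which bears on the FPKM levels. A share within a library keeps its value under any factor common to the genes of that library. The sort described for mpEC and bmEC differs from that of the knockout arms. For both knockout arms the same sort is described. The source of the different make-up was not tested.

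Among the pathway lists, 3 genes were called in the labelled libraries, all higher. They were Npr1, the receptor of atrial natriuretic peptide (log2 difference 0.72 ± 0.11, limma adjusted p = 0.0305), F2r, a thrombin receptor (0.72 ± 0.14, limma adjusted p = 0.0457), and Vegfa of the hypoxia list (1.26 ± 0.18, limma adjusted p = 0.0235). No gene was called among 2 other ligands and receptors, 6 peptide-processing genes, 15 coupling genes or 9 YAP/TAZ targets tested. Gpr182 was at 15.98, 21.2 and 21.2 FPKM in controls and 27.2, 27.6 and 28.2 FPKM in the labelled libraries (limma adjusted p = 0.0725).

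**Figure D3:**
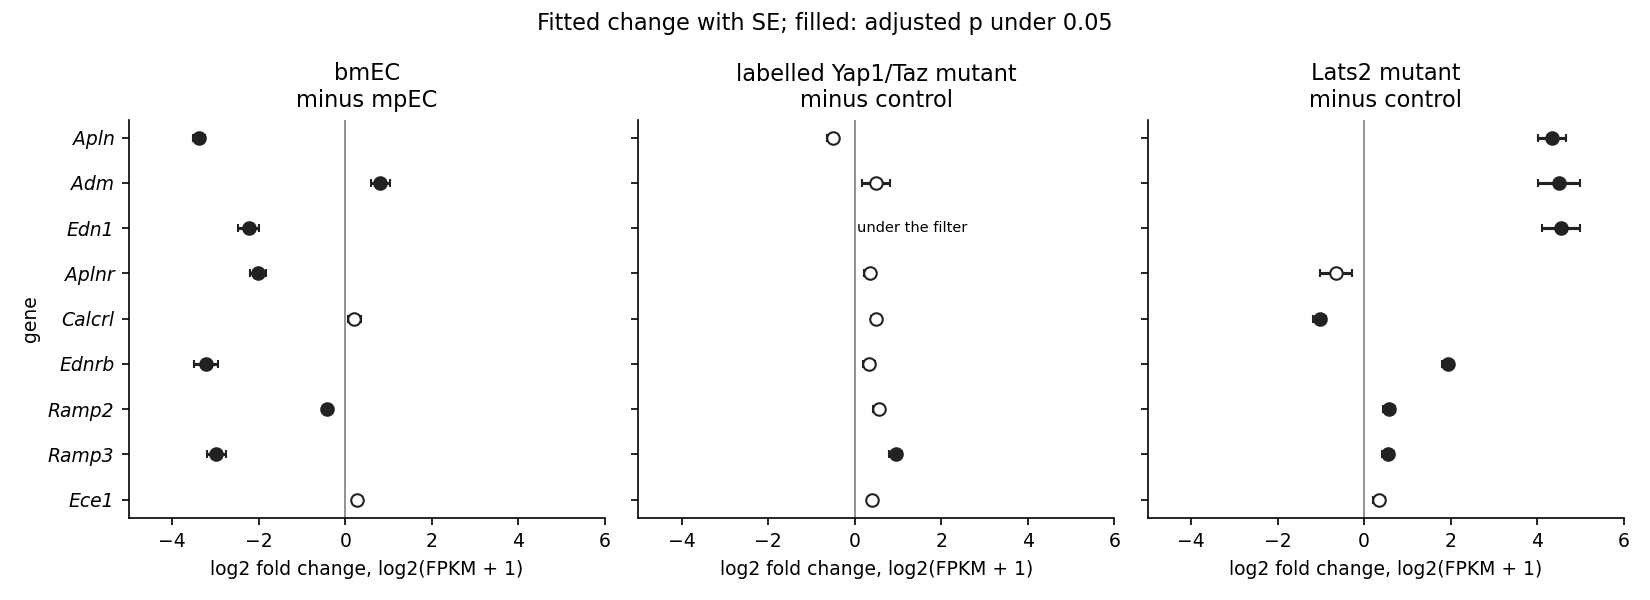
Fitted log2 fold change of each gene in the 3 comparisons with its SE on the log2(FPKM + 1) scale, filled where the limma adjusted p is under 0.05. The ligand genes lie at −3.39, 0.81 and −2.23 in bmEC against mpEC and at 4.34, 4.51 and 4.55 in the Lats2 comparison.

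The third comparison set Lats2 mutant libraries against their controls. Lats2 is the kinase that restrains Yap1 and Taz. All 3 ligand genes were higher in the mutants by more than a log2 difference of 4, and their receptors went separate ways. Called higher were Apln, Adm, Edn1, Ednrb, Ramp2 and Ramp3, and called lower was Calcrl, which is 7 of 9 members (limma, adjusted p under 0.05). Over all 12453 genes tested 21.8% were called, 11.8% higher and 9.98% lower. With 2 libraries a side, the groups did not overlap for 8 of the 9 members and for 68.2% of all genes tested, so most genes separated these groups.

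Apln was at 30.5 and 41.1 FPKM in controls and 546 and 993 FPKM in mutants, or 478 and 770 reads against 6495 and 15564. Its mean was 21.5-fold higher in mutants (log2 difference 4.34 ± 0.31, n = 2 and 2, limma adjusted p = 0.00684). In mutant replicate 2 it passed every other member in abundance, its own receptor included. Adm was at 6.26 and 8.03 FPKM in controls and 109 and 311 FPKM in mutants, from 43 and 66 reads to 566 and 2135. Its mean was 29.3-fold higher (log2 difference 4.51 ± 0.49, limma adjusted p = 0.00986). Edn1 was at 1.89 and 3.66 FPKM in controls and 56.0 and 129 FPKM in mutants, from 22 and 51 reads to 495 and 1509, with a 33.4-fold higher mean (log2 difference 4.55 ± 0.44, limma adjusted p = 0.00899).

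The 3 ligand genes ranked 6th (Apln), 5th (Adm) and 4th (Edn1) from the highest log2 difference among the 12453 genes tested. In each, mutant replicate 2 was the higher of the mutants and control replicate 2 the higher of the controls. Leaving out mutant replicate 2 gave 3.76 for Adm and 3.96 for Edn1, and leaving out mutant replicate 1 gave 5.27 and 5.15. Without either control library the adjusted p of all 7 called members was above 0.05 (reaching 0.129 for Apln and Edn1 and 0.130 for Adm), and no gene in the table was called. Such a fit assumes that the lone control varies like the mutants. At an unadjusted p under 0.05 it still counted 2724 genes and 7 members without control replicate 1, and 2879 genes and 5 members without control replicate 2.

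The receptors did not follow their ligands as a group. Ednrb was at 27.1 and 27.9 FPKM in controls and 102 and 113 FPKM in mutants, a 3.91-fold higher mean (log2 difference 1.93 ± 0.12, limma adjusted p = 0.00573). The libraries of each group lay close together. Calcrl was lower, at 65.8 and 75.1 FPKM in controls and 37.8 and 30.7 FPKM in mutants (log2 difference −1.02 ± 0.15, limma adjusted p = 0.0150). Its call was also lost without mutant replicate 2, and the adjusted p without 1 library was 0.0239 to 0.145. Aplnr was at 623 and 754 FPKM in controls and 644 and 296 FPKM in mutants, which overlapped (log2 difference −0.65 ± 0.38, limma adjusted p = 0.264). Its value rested on 1 library, with −1.21 (adjusted p = 0.0300, in a range of 0.0300 to 0.738 over all its fits) without mutant replicate 1 and −0.09 without mutant replicate 2.

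Both RAMP genes were slightly higher in mutants. Ramp2 was at 108 and 98.5 FPKM in controls and 140 and 168 FPKM in mutants (log2 difference 0.57 ± 0.14, limma adjusted p = 0.0456). Ramp3 was at 41.8 and 35.4 FPKM in controls and 54.7 and 58.7 FPKM in mutants (log2 difference 0.55 ± 0.13, limma adjusted p = 0.0425). The Ramp2 call was lost in 8 of 13 alternative fits and the Ramp3 call in 9 of 13, among them the fit scaled to pan-endothelial genes, and also without mutant replicate 2, with adjusted p up to 0.284 and 0.262. The proportions of these RAMP genes hardly differed between the groups. Ramp3 was 25.9% to 28.0% and Ramp2 71.5% to 73.9% of the RAMP sum in all 4 libraries. With Calcrl lower, the RAMP sum per Calcrl FPKM was 1.80 and 2.30 in controls and 5.17 and 7.38 in mutants. Ece1 was at 89.9 and 105 FPKM in controls and 117 and 132 FPKM in mutants and was not called (log2 difference 0.35 ± 0.14, limma adjusted p = 0.133).

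Ligand and receptor transcripts were therefore in another balance in the mutants. The Apln to Aplnr ratio of FPKM was 0.0490 and 0.0545 in controls and 0.848 and 3.35 in mutants. For Adm to Calcrl it was 0.0951 and 0.107 in controls and 2.87 and 10.1 in mutants. For Edn1 to Ednrb it was 0.0695 and 0.131 in controls and 0.547 and 1.15 in mutants. The other 14 libraries stayed below these mutant values, the highest being 0.116 for Apln to Aplnr, 0.136 for Adm to Calcrl and 0.335 for Edn1 to Ednrb. These ratios were not tested.

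**Figure D4:**
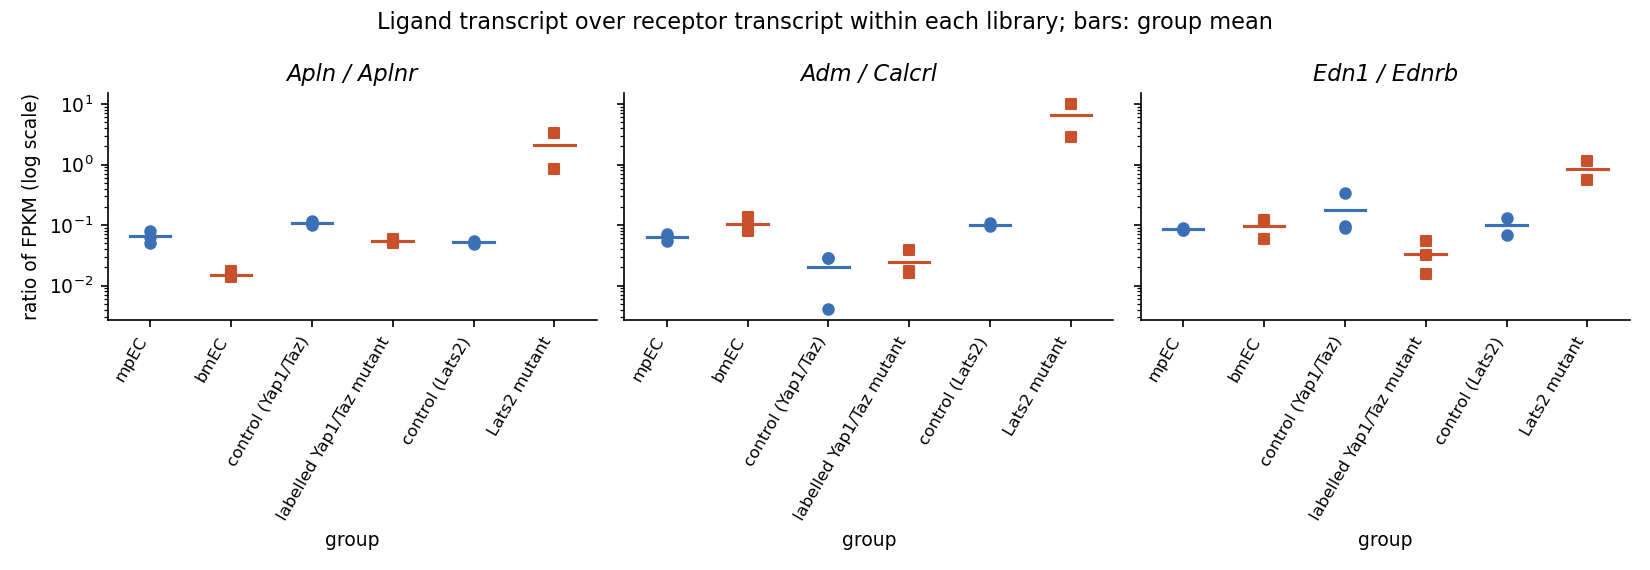
Ratio of ligand to receptor FPKM within each library on a log axis, with a bar at each group mean, for Apln over Aplnr, Adm over Calcrl and Edn1 over Ednrb. Both Lats2 mutant libraries lie above all others in each panel, from 0.848 and 3.35 for Apln over Aplnr to 0.547 and 1.15 for Edn1 over Ednrb.

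Other measures moved with the Lats2 groups. The gene row Gm23935, the most abundant in all 4 libraries, was at 6093 and 7629 FPKM in controls and 15846 and 26667 FPKM in mutants. The endothelial markers summed to 2650 to 2918 FPKM in controls and 2423 to 2607 FPKM in mutants, with 1 of 10 called higher (Pecam1) and 2 lower (Kdr and Tek). Of 8 neutrophil markers 6 were called lower (sums of 1932 to 2884 and 705 to 848 FPKM), as were 4 of 5 tested B cell markers (78.4 to 89.9 and 23.2 to 29.7 FPKM). Slc4a1 was called lower among 7 erythroid markers (sums of 2436 to 3670 and 243 to 1395 FPKM) and Pf4 among 5 megakaryocyte markers (29.7 to 110 and 9.45 to 12.1 FPKM). No macrophage marker of 5 tested was called, with sums of 475 to 556 and 91.5 to 324 FPKM. Of the marrow stromal markers Cxcl12 and Kitl were called higher (2 of 4 tested, sums of 51.9 to 63.9 and 86.5 to 96.5 FPKM). Of the pericyte and smooth muscle markers Acta2 and Tagln were called higher and Abcc9 and Kcnj8 lower (4 of 5 tested, sums of 463 to 555 and 124 to 141 FPKM), whereas Cspg4, Des and Myh11 had means under 1 FPKM. No marker of these lists was at 0 in all libraries. The part of these cells, and of the row Gm23935, in the member differences was not tested.

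Of the other ligands and receptors, 2 of 11 passed the filter in the Lats2 arm and both were called. Gpr182 was at 206 and 185 FPKM in controls and 44.0 and 19.1 FPKM in mutants (log2 difference −2.71 ± 0.38, limma adjusted p = 0.0133). Ackr3 was at 4.80 and 7.78 FPKM in controls and 21.1 and 47.6 FPKM in mutants (2.20 ± 0.41, limma adjusted p = 0.0239). Gpr182 and Ackr3 were called in opposite directions in both this comparison and bmEC against mpEC, with Gpr182 higher and Ackr3 lower in bmEC and the reverse in Lats2 mutants. Ednra was at 0.0921 to 0.404 FPKM, and Ramp1 at 1.40 and 1.22 FPKM in controls and 0.964 and 0.399 FPKM in mutants.

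Ace and Pcsk6 were called higher among 7 peptide-processing genes tested, with Ace, the angiotensin-converting enzyme, at 4.03 and 7.28 FPKM in controls and 32.4 and 24.1 FPKM in mutants (2.17 ± 0.28, limma adjusted p = 0.0123). Of 16 coupling and desensitization genes Gnas, Grk5 and Rgs5 were higher and Gna12 was lower, with Rgs5 at 1.53 ± 0.36 (limma adjusted p = 0.0389). Of 6 other vasoactive receptors tested Bdkrb2, F2r and F2rl1 were higher and the natriuretic peptide receptor genes Npr1, Npr2 and Npr3 were lower. F2rl1, a protease-activated receptor, went from 0.0730 and 0.183 FPKM to 3.85 and 6.56 FPKM (2.43 ± 0.29, limma adjusted p = 0.0106).

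The YAP/TAZ target list had 6 of 13 tested genes higher and Axl lower, with Cyr61 at 3.50 ± 0.32, Thbs1 at 3.44 ± 0.40 and Ctgf at 2.61 ± 0.32 on the log2 scale, and Ajuba, Amotl2 and Crim1 the others. The hypoxia list was mixed. Ankrd37 (3.42 ± 0.45), Egln3 (3.05 ± 0.51), Higd1a, P4ha2 and Slc2a1 were higher and Vegfa (−1.998 ± 0.17), Kdm3a and Pdk1 were lower, 5 and 3 of 14 tested. Vegfa, a growth factor gene induced by low oxygen, thus went opposite to Adm, Ankrd37 and Egln3 in the mutants. The median log2 difference was 0.88 in the YAP/TAZ list, 0.33 in the hypoxia list and 0.57 over the 9 members.

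Across comparisons, no control library was shared. Apln, Edn1 and Ednrb were called lower in bmEC and higher in Lats2 mutants. Adm was called higher in both. Ramp2 and Ramp3 were called lower in bmEC and higher in Lats2 mutants, and Ramp3 was also called higher in the libraries labelled Yap1/Taz mutant. Calcrl was called in the Lats2 comparison only, Aplnr in bmEC against mpEC only and Ece1 in none, and these differences between comparisons were not themselves tested. Apln was lower by label in the Yap1/Taz arm (−0.51, not called) and higher in the Lats2 mutants.

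For each member, the 3 genes with the most similar pattern were taken over the 16 libraries after each set was centred, among 9069 genes tested in all 3 comparisons. The libraries share group structure, depth and cell make-up, so r is a description. Apln was closest to Ehd4 (r = 0.990), Meox1 (r = 0.984) and Vim (r = 0.984). Within the Yap1/Taz libraries alone, r with Apln was 0.784 for Ehd4, 0.659 for Meox1 and −0.060 for Vim. Ednrb was closest to Igfbp3 (r = 0.982), Cd34 (r = 0.979) and Cd109 (r = 0.977), which are lower in bmEC and higher in Lats2 mutants, as Ednrb was. Aplnr was closest to Lrrc55, Agrn and Olfml2a (r = 0.970 to 0.959), and Ramp3 to Colgalt2, Rapgef4 and Emp1 (r = 0.976 to 0.960).

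Adm was closest to Myl12b (r = 0.978), Cox8a and Lrrfip1. In the Lats2 mutants the log2 differences of Cox8a and Lrrfip1 were 0.97 and 1.29, and in bmEC against mpEC they were 0.04 and −0.05, where that of Adm was 0.81. Calcrl was closest to Cdk17 (r = 0.975), Mob1a and Atf2. Ramp2 was closest to Dctn2 (r = 0.957), Wwtr1 (r = 0.924) and Myct1 (r = 0.922). The Wwtr1 likeness includes the libraries labelled Yap1/Taz mutant, in which Wwtr1 was higher. Ece1 had the weakest matches, Scamp2, Camk2n1 and Mafk (r = 0.898 to 0.893). Among the members themselves Ramp3 and Ednrb were most alike (r = 0.928), followed by Apln and Ednrb (r = 0.901). Edn1 was not tested in all 3 comparisons and was left out.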

How the data were processed

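Libraries were made from total RNA of sorted bone endothelial cells with the TruSeq Stranded Total RNA kit. Per the labels and the study's methods, the authors mapped paired-end reads to the mouse genome GRCm38 (mm10) by TopHat, took gene counts by HTSeq 0.6.1 and tested groups with DESeq2. The authors deposited FPKM values per gene and library. How FPKM was computed is not given in the sources used here, and the unit of the 6 Yap1/Taz files was taken from their values. Reads were recovered by dividing FPKM by the value of 1 read at each gene's length: 62.3% to 70.0% of the values of up to 20 reads per library were whole within 0.02. No sample column was left unused (0). Within each group, the recovered reads of every pair of libraries differed by more than sampling noise (chi-square per degree of freedom 3.35 to 34.4).

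Groups came from the labels. Each comparison was fitted separately with limma 3.58.1 (R 4.3.3; empirical Bayes with a mean-variance trend, two-sided) on log2(FPKM + 1) for genes averaging 1 FPKM or more, with p-values adjusted by Benjamini-Hochberg over all genes tested. The script was tested on simulated data with known changes. Figures and summaries used Python 3.11.15 with pandas 2.3.3 and matplotlib 3.10.9. Alternatives were a pseudocount of 0.1, no filter or a floor of 5 FPKM on the mean, quantile, median-ratio and pan-endothelial scaling (Cdh5, Erg, Tie1, Egfl7, Esam and Cldn5), no trend, the replicate number as a block, each library left out, the thresholds of the study (adjusted p under 0.01 and a log2 difference over 0.5) and, chosen after seeing the data, limma's voom on the recovered reads.

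The members, pathway lists, marker lists and tests were chosen with earlier results of these data known. Named were the 9 members, the targeted genes, each called gene of the pathway lists (with values for the 5 largest changes over the peptide lists and the 3 largest in the hypoxia and YAP/TAZ lists of each comparison), any level in the list of other ligands and receptors, and the 3 genes most like each member by Pearson's r. Genes and identifiers in the Yap1/Taz files were paired through the reference annotation, where 21375 of 21603 matched. Promoter windows came from RefSeq (GRCm38.p6), in which 7 of the 9 members had one, and no window of Aplnr or Ramp2 was used here.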

Additional observations from a re-analysis of the deposited data

How the results depend on the processing

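In bmEC against mpEC 7 members were called, and the alternatives called 5 to 7. The count was 5 with no filter, at the thresholds of the study, and without mpEC replicate 2, bmEC replicate 1 or bmEC replicate 2. Only the thresholds of the study moved the count of all genes called by more than 1.5 times, from 2682 to 1335. In the Yap1/Taz arm, where 1 member and 148 genes were called, members and genes came to 0 and 1 with no filter (limma; 2023 genes had an unadjusted p under 0.05 as fitted in the report), 0 and 17 with no trend, 0 and 1 at the thresholds of the study, 2 and 5767 with pan-endothelial scaling, 2 members with a floor of 5 FPKM on the mean, and 4 and 386 with voom (chosen after seeing the data). Leaving out a library gave 0 to 3 members and 1 to 293 genes. Pan-endothelial scaling raised the pathway list calls from 3 to 14 and reversed Aplnr (−0.097), Ednrb (−0.072) and Ece1 (−0.028). In the Lats2 arm, where 7 members and 2711 genes were called, the thresholds of the study left 4 members and 257 genes and no filter left 1389 genes, and leaving out a library gave 0 to 7 members and 0 to 2701 genes. The cause was not tested. Of 369 alternative fold changes of members, 312 kept direction and side of the threshold, 46 lost the call, 8 gained it and 3 reversed.

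With the replicate number as a block, 7 members and 3072 genes were called in bmEC against mpEC, 0 members and 45 genes in the Yap1/Taz arm and 5 members and 2655 genes in the Lats2 arm. Deviations of same-numbered libraries correlated at 0.31, 0.088 and 0.10 in bmEC and mpEC, −0.18, −0.12 and −0.16 in the Yap1/Taz arm and 0.065 in the Lats2 arm, and not every library correlated best with its own number, so the numbers were treated as names. Depth limits Adm and Edn1 in the Yap1/Taz arm, with 2 to 36 reads per library.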
